A study of Homo sapiens with 18 samples.

Results

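FOXO3 was depleted with a short hairpin RNA (shRNA) in BL-41, an established Burkitt lymphoma cell line that carries no Epstein-Barr virus (EBV), and the messenger RNA of these cells was compared with that of BL-41 cells given a scrambled shRNA. All 16001 genes of the authors' deposited table for BL-41 were taken as members, of 17561 genes in the tables of the whole series. Both arms carried the lentiviral vector pRSI12-U6-shUbiC-TagRFP, and 4 days after transduction the infected cells were isolated by sorting (day 4). Each arm held 3 libraries. The same pair of arms was made in Namalwa and Jiyoye, Burkitt lymphoma lines that carry EBV, and these serve below only to show where BL-41 differed. As a model the comparison is limited to a single cell line, a single scrambled control and what the labels describe as FOXO3 shRNA with no sequence given. The title of the series describes the knockdown as toxic to Burkitt lymphoma lines, and how many cells were lost before sorting is not given in the sources used here. The labels call the libraries triplicates without saying that they were separate cultures, so every p-value below reflects only how far these libraries spread, and that spread may be technical.

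FOXO3 is a forkhead transcription factor of the FOXO family. When growth factor signalling through PI3K and AKT is low it stays in the nucleus and activates genes of cell cycle arrest, cell death, autophagy and defence against reactive oxygen, and AKT phosphorylation moves it to the cytoplasm. In B cells the FOXO family is known for driving RAG expression in precursors and for its part in the germinal centre, the site of origin of Burkitt lymphoma.

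The deposited value of an arm is a normalized count, 1 per gene and arm, and the fold change is on the log2 scale, FOXO3 shRNA over scrambled shRNA; signed values in brackets after a gene are log2 fold changes. The error given with a fold change is its recovered standard error (SE), computed from the deposited p, and a gene is said to rise or fall where the adjusted p of the authors' DESeq2 test was under 0.05. The arm values summed over genes to 17780991.0 with scrambled and 18459745.0 with FOXO3 shRNA, an average per library. The value of 1 read, seen in 741 genes with a single read over the 6 libraries, gave size factors of 0.979, 0.953 and 0.950 in the FOXO3 shRNA libraries and of 1.10, 1.05 and 0.995 in the scrambled ones, so library size did not overlap between the arms. The part of this difference in the results was not tested.

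The target was checked first. FOXO3, on chromosome 6 (chr6:108559825-108684774, GRCh38.p14), was at 945 with scrambled and 545 with FOXO3 shRNA in the authors' deposited table, a log2 fold change of -0.79 (SE 0.14, adjusted p = 3.15e-07 by the authors' DESeq2 test). The message that remained was 0.577 of the control level. The other family members were not called. FOXO1, the main FOXO factor of germinal centre B cells, was at 2277 with scrambled and 2355 with FOXO3 shRNA in the authors' deposited table, a log2 fold change of 0.05 (adjusted p = 0.827, DESeq2). FOXO4 was at 358 with scrambled and 299.9 with FOXO3 shRNA in the authors' deposited table and FOXO6, the lowest of the family, at 56.9 with scrambled and 49.8 with FOXO3 shRNA.

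The cells expressed the markers of a germinal centre B cell. In the authors' deposited table the scrambled arm held 17157 for CD79A, 10048 for PAX5, 9514 for MS4A1 (CD20), 6212 for MME (CD10), 2847 for BCL6 and 268 for MYBL1, a germinal centre factor. Most defining genes of other lineages lay near 0. Of 9 epithelial and stromal markers 1 rose and 1 fell, with summed values of 9952 and 14614, nearly all of it VIM (vimentin), which lymphocytes also express. CD3D was at 3.35, HBB at 0.165, EPCAM at 0.683 and MPO at 0.782 in that arm of the authors' deposited table. Of the 13 measured myeloid markers 5 rose and 1 fell, with a median log2 fold change of 0.85. Their summed value went from 3237 to 1337, and MPEG1, the member that fell, made up most of the scrambled sum. CD14, a monocyte receptor, was at 5.25 with scrambled and 26.7 with FOXO3 shRNA and LYZ, lysozyme, at 37.9 with scrambled and 107 with FOXO3 shRNA in the authors' deposited table. CSF1R, a defining macrophage gene, and CST3 were not called. CSF1R lay at 4.84 with scrambled and 9.13 with FOXO3 shRNA and CST3 at 0.514 and 0.476 in the authors' deposited table. The 16 T and NK cell markers summed to 2489 and 2840.5, mostly LCK and ZAP70, kinases that B cell lymphomas can also express. The part of these markers in the results was not tested.

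Over the 16001 genes 2314 rose (14.5%) and 2277 fell (14.2%), and the median log2 fold change was 0.02. Among the 9884 genes whose mean reached 100 the same counts were 1981 (20.0%) and 2045 (20.7%), with a median of 0.000232 and a median SE of 0.14. List counts below should be read against these shares, the second pair for lists of well-expressed genes. Rises were more frequent at high GC content. Split into 5 equal groups by transcript GC content, the group with the highest content held 604 rises and 350 falls, with a median log2 fold change of 0.10, and the lowest held 295 rises and 379 falls, with a median of -0.02.

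**Figure D1:**
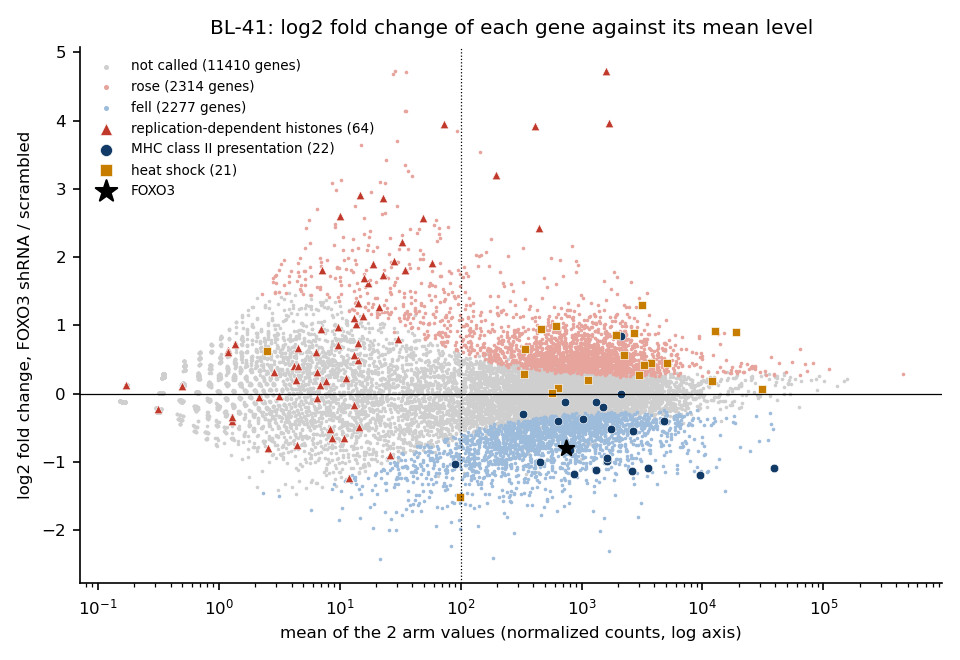
Log2 fold change of each of the 16001 genes in BL-41 (y axis) against the mean of both arm values in normalized counts (x axis, log scale). Pale red and blue points are genes that rose (2314) and fell (2277), grey points were not called, the dotted line marks a mean of 100, and the black star is FOXO3. Histone genes (red triangles) reach 4.72, the 16 MHC class II genes that fell (dark circles) lie between -0.36 and -1.19, and most heat shock genes (orange squares) lie above 0.

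**Figure D2:**
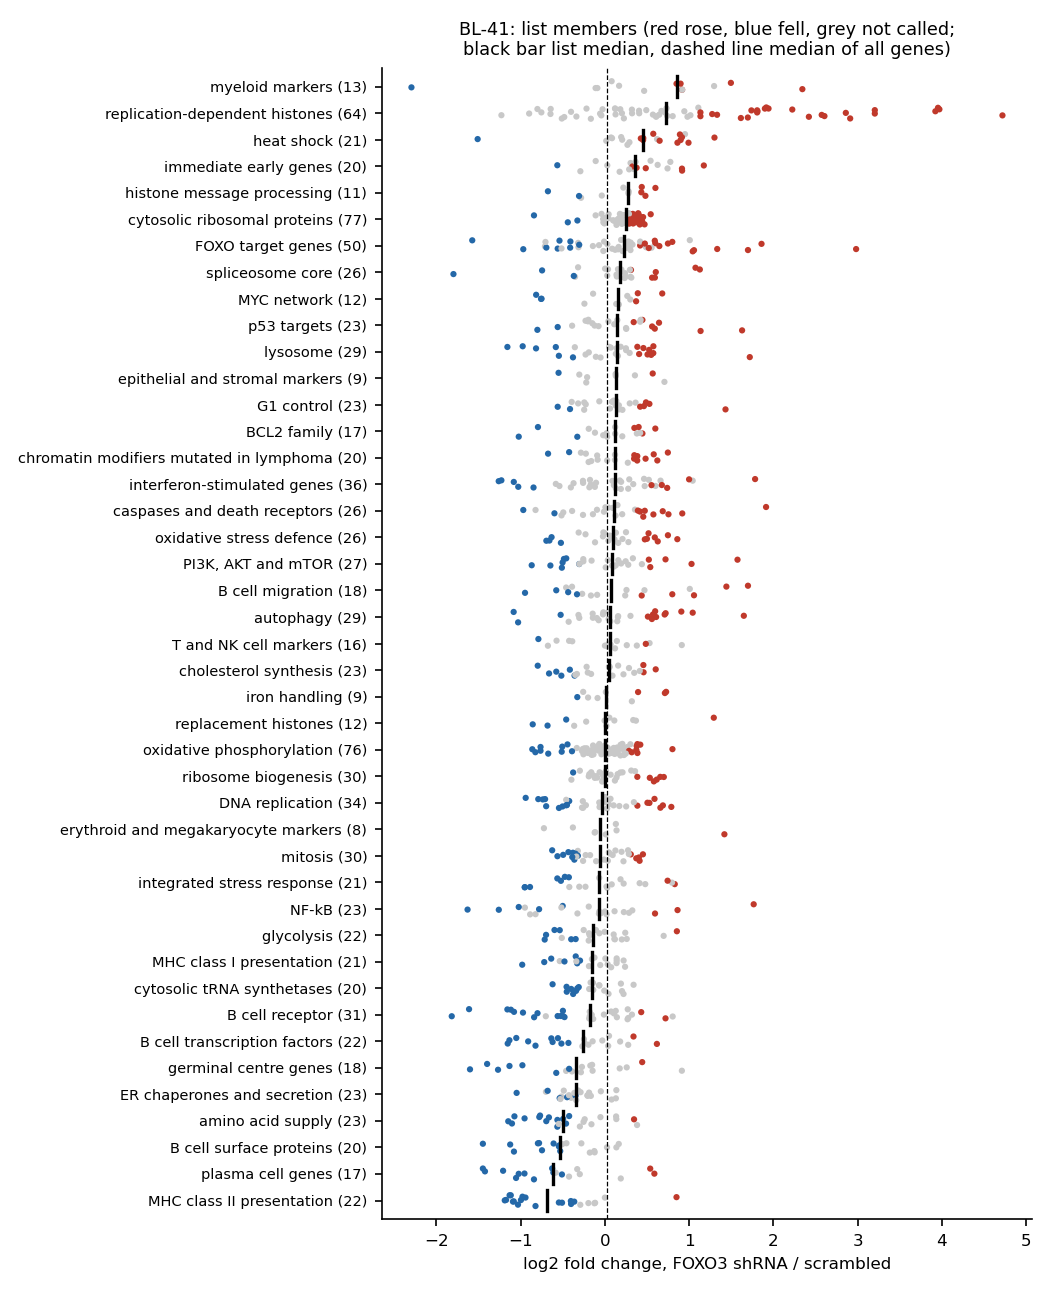
Log2 fold change in BL-41 (x axis) of the measured members of each gene list (rows, number measured in brackets, sorted by median). Red points rose, blue points fell, grey points were not called, the black bar is the list median and the dashed line the median of all genes (0.02); medians run from -0.69 for MHC class II presentation to 0.85 for the myeloid markers.

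The genes that build and load MHC class II fell as a group. MHC class II molecules display peptides to helper T cells. They are pairs of alpha and beta chains that assemble on the invariant chain CD74 and exchange its remnant for peptide with the help of HLA-DM, and CIITA, with RFX and NF-Y bound at the promoters, switches the genes on. Of 22 listed genes 16 fell and 1 rose, with a median log2 fold change of -0.69 against 0.02 over all genes. In these bulk libraries fewer cells of a kind and less RNA per cell cannot be told apart. All 7 classical chains fell. HLA-DRA, the alpha chain of HLA-DR, was at 13315 with scrambled and 5839 with FOXO3 shRNA in the authors' deposited table, a log2 fold change of -1.19 (SE 0.15, adjusted p = 4.92e-13, DESeq2). Its partner HLA-DRB1 was at 3608 with scrambled and 1647 with FOXO3 shRNA in the authors' deposited table (-1.13, SE 0.14). HLA-DRB5, a near copy of HLA-DRB1 that can share its reads and is therefore uncertain, was at 119.8 with scrambled and 58.6 with FOXO3 shRNA in the authors' deposited table. Both chains of HLA-DR were thus lower with FOXO3 shRNA by a similar amount. The other chains fell by 1.12 (HLA-DQA1), 1.08 (HLA-DPA1) and 0.98 (HLA-DPB1) on the log2 scale in the authors' deposited table. HLA-DQB1 fell least of the chains, with -0.51 in the authors' deposited table.

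The chaperones fell too. CD74, one of the most abundant messages of the line, was at 53303 with scrambled and 25007 with FOXO3 shRNA in the authors' deposited table, a log2 fold change of -1.09 (SE 0.14, adjusted p = 2.81e-13, DESeq2). The exchange factor HLA-DM and its inhibitor HLA-DO followed, with log2 fold changes of -1.17 for HLA-DMA, -0.82 for HLA-DMB and -0.94 for HLA-DOA in the authors' deposited table, and HLA-DOB fell from 602 to 302. CTSS, the protease that trims the invariant chain, fell to a lesser degree (-0.55 in the authors' deposited table). IFI30, a thiol reductase of the endosome, was the member that rose, from 1511 to 2724 in the authors' deposited table (0.85, SE 0.18). The regulators had smaller fold changes than the chains. CIITA lay at 1375 with scrambled and 1268 with FOXO3 shRNA in the authors' deposited table and was not called by DESeq2 (-0.12, adjusted p = 0.615). Among the promoter-bound factors RFX5, RFXANK and NFYA fell, with -0.40, -0.36 and -0.40 in the authors' deposited table, while RFXAP, NFYB and NFYC were not called, with -0.29, -0.12 and 0.00.

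One promoter of this group is shown because it holds the box that NF-Y recognizes. The window runs from 250 bases before to 50 after the transcript start (RefSeq, GRCh38.p14), at chr6:32589799-32590098 on the minus strand, and capitals mark TGATTGG, the complement of the CCAAT box with its flank, 48 bases before the start.
HLA-DRB1 promoter: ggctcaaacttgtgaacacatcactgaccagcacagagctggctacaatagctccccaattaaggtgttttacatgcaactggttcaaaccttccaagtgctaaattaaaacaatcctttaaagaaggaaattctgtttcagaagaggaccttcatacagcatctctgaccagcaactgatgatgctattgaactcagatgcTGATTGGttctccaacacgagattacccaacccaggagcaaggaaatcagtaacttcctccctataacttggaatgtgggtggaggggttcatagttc
These letters, searched on both strands, were in a promoter of 8 of the 18 MHC class II genes with an entry. They were in 1415 of all 12843 genes with an entry, in 10.8% of those that rose and in 11.7% of those that fell.

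The class I pathway, which presents peptides to cytotoxic T cells, held smaller changes. Of 21 genes 7 fell and 0 rose by DESeq2 (1 at an unadjusted p under 0.05), with a median of -0.15. HLA-B was at 12310.0 with scrambled and 7471 with FOXO3 shRNA in the authors' deposited table (-0.72, SE 0.16), while HLA-C and B2M, the shared light chain, were not called (-0.19 and 0.14). Reads can be shared between these chains. ERAP1, which trims peptides for class I, fell from 4097 to 2074 in the authors' deposited table (-0.98) and its relative ERAP2 was not called (0.24).

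Several genes of B cell receptor signalling fell, while most kinases at its head were not called. The receptor signals through CD79A and CD79B, the kinases SYK, LYN and BTK, the linker BLNK and the phospholipase PLCG2. Of 31 genes 13 fell and 2 rose, with a median of -0.18. CD79B was at 11753 with scrambled and 6564 with FOXO3 shRNA in the authors' deposited table (-0.84, SE 0.12), and its partner CD79A was not called, at 17157 with scrambled and 18059.8 with FOXO3 shRNA (0.07). BLNK was at 2603 with scrambled and 1167 with FOXO3 shRNA in the authors' deposited table (-1.16, SE 0.16) and PRKCB, the kinase that leads to NF-kB, at 3182 with scrambled and 1621 with FOXO3 shRNA (-0.97, SE 0.15). SYK, LYN and BTK were not called, with -0.18, -0.01 and -0.14 in the authors' deposited table. Of the 12 negative regulators 7 fell and 1 rose. FCGR2B, the inhibitory Fc receptor, was at 991 with scrambled and 457 with FOXO3 shRNA in the authors' deposited table, and FCRLA, an intracellular Fc receptor homologue, at 12181 with scrambled and 5764 with FOXO3 shRNA. INPP5D, the lipid phosphatase SHIP1, was the one that rose, from 3249 to 5351 in the authors' deposited table (0.72, SE 0.11).

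Among 20 B cell surface proteins 10 fell and 0 rose by DESeq2 (0 at an unadjusted p under 0.05), with a median of -0.53. The BAFF and APRIL receptors, which carry survival signals, all fell. TNFRSF17 (BCMA) was at 493 with scrambled and 180.5 with FOXO3 shRNA in the authors' deposited table, TNFRSF13B (TACI) at 226 with scrambled and 104 with FOXO3 shRNA and TNFRSF13C (BAFF receptor) at 323 with scrambled and 153 with FOXO3 shRNA. CD40, the receptor for T cell help, was at 341 with scrambled and 203 with FOXO3 shRNA in the authors' deposited table (-0.75, SE 0.18). MS4A1, CD24 and CD81 were not called, with -0.18, 0.14 and -0.28 in the authors' deposited table.

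Of 22 B cell transcription factors 10 fell and 2 rose, with a median of -0.26. ETS1, which holds back plasma cell differentiation, was at 15329 with scrambled and 6986 with FOXO3 shRNA in the authors' deposited table (-1.13, SE 0.14). SPIB, an ETS factor, was at 3949 with scrambled and 1774 with FOXO3 shRNA in the authors' deposited table and POU2AF1, the coactivator of octamer-bound factors, at 6369 with scrambled and 3071 with FOXO3 shRNA. EBF1, TCF3, IRF8, MEF2B and BACH2 also fell, with -0.62, -0.43, -0.91, -0.82 and -0.64 in the authors' deposited table. PAX5, IKZF1, TCF4 and FOXP1 were not called (-0.24, -0.03, 0.04 and 0.18 in the authors' deposited table). The members that rose were ID2, an inhibitor of E proteins such as TCF3, at 1450.2 with scrambled and 2225 with FOXO3 shRNA in the authors' deposited table, and RUNX1, at 1375 with scrambled and 1740.1 with FOXO3 shRNA.

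Germinal centre genes split in the same way. Of 18, 7 fell and 1 rose. TCL1A, a coactivator of AKT, was at 13294 with scrambled and 6061 with FOXO3 shRNA in the authors' deposited table and GCSAM, a regulator of motility, at 4686 with scrambled and 1544 with FOXO3 shRNA. BCL6, the master repressor of the germinal centre, lay at 2847 with scrambled and 3407 with FOXO3 shRNA in the authors' deposited table and was not called by DESeq2 (0.26, adjusted p = 0.232), and MYBL1 rose (0.44). The plasma cell list held more falls than rises as well. Of 17 plasma cell genes 10 fell and 2 rose. JCHAIN, the joining chain of polymeric antibodies, was at 22417 with scrambled and 8352 with FOXO3 shRNA in the authors' deposited table, XBP1, the factor of the secretory programme, at 12134 with scrambled and 7860.4 with FOXO3 shRNA, and MZB1, an antibody assembly chaperone, at 3163 with scrambled and 1632 with FOXO3 shRNA. PRDM1 (Blimp-1) was not called (-0.30 in the authors' deposited table) and IRF4 rose (0.54, SE 0.15).

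**Figure D3:**
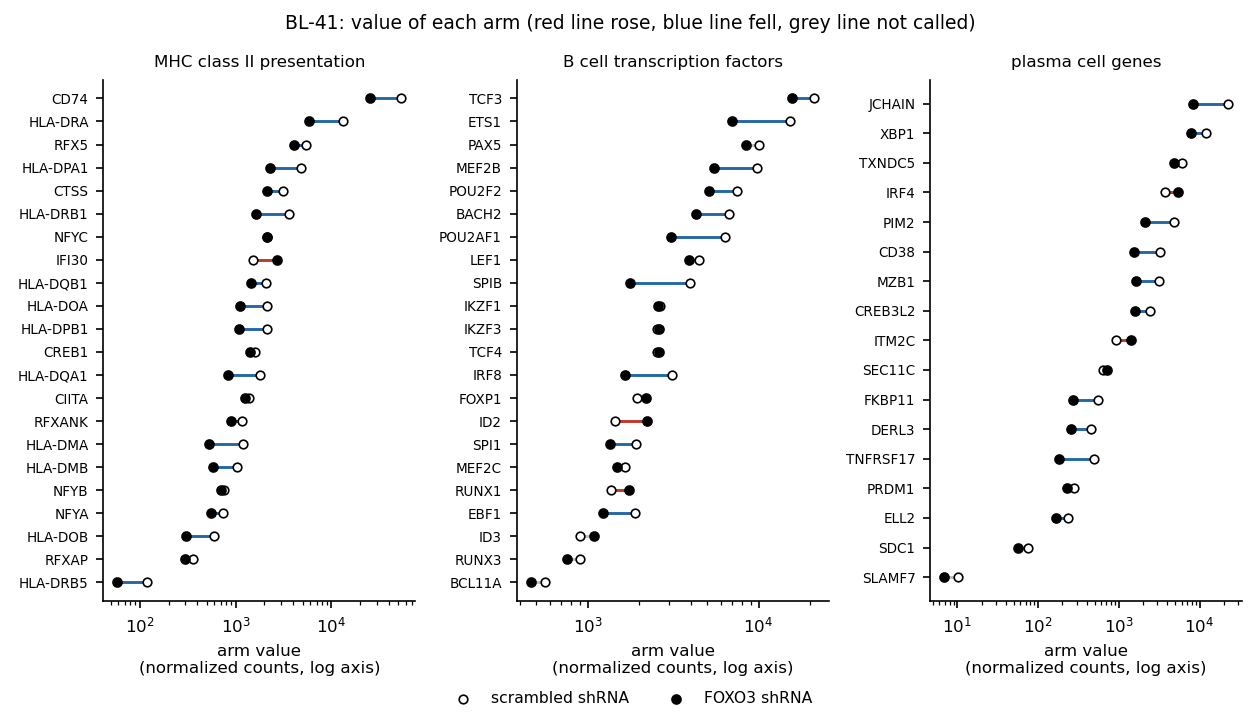
Deposited value of each arm in BL-41 (x axis, normalized counts, log scale) for the genes of 3 lists (rows, sorted by level), open circles scrambled shRNA and filled circles FOXO3 shRNA. Blue lines fell, red lines rose and grey lines were not called; the class II chains and chaperones lie left of their controls with CD74 at the top, while CIITA, PAX5 and PRDM1 have grey lines.

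Genes of B cell movement went both ways, with 5 rises and 4 falls among 18. S1PR1, the receptor that leads lymphocytes out of tissue, was at 229 with scrambled and 744 with FOXO3 shRNA in the authors' deposited table (1.70, SE 0.18, adjusted p = 1.58e-18, DESeq2), and KLF2, the factor that activates it, at 265 with scrambled and 553 with FOXO3 shRNA (1.06, SE 0.17). CCR7, the receptor for entry into the T cell zone, rose from 782 to 1361, and CXCR5, the receptor for entry into the follicle, fell from 211 to 109.6 in the authors' deposited table. The confining receptors P2RY8 (-0.58) fell and S1PR2 (-0.46) and CXCR4 (-0.39) were not called in the authors' deposited table.

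Known FOXO target genes did not move as a block in either direction. Of 50 measured targets 14 rose and 8 fell, against 20.0% and 20.7% of well-expressed genes, and the median was 0.23. Among targets of cell cycle arrest CDKN1A (p21) was at 2392 with scrambled and 1622 with FOXO3 shRNA and CDKN1B (p27) at 884 with scrambled and 1181 with FOXO3 shRNA in the authors' deposited table, so one inhibitor fell and the other rose. GADD45A, a stress sensor, fell (-0.41) and CCNG2, an unusual cyclin, was not called (-0.01) in the authors' deposited table. Among death genes BCL2L11 (BIM) rose from 654 to 990.0 (0.60, SE 0.18) and TNFSF10 (TRAIL) fell from 198 to 101 (-0.97, SE 0.21) in the authors' deposited table. Of the autophagy and atrophy targets ULK1, the kinase that starts autophagy, was at 859 with scrambled and 1769 with FOXO3 shRNA and FBXO32, a ubiquitin ligase of muscle atrophy, at 436 with scrambled and 1099.7 with FOXO3 shRNA in the authors' deposited table, and both rose. Of the antioxidant enzymes SOD2 rose (0.75, SE 0.15) and CAT, catalase, fell (-0.70, SE 0.16) in the authors' deposited table. IGF1R, the growth factor receptor, rose (0.65) and INSR, the insulin receptor, fell (-0.41) in the authors' deposited table. The recombinase genes of B cell precursors both fell, RAG1 from 721 to 496 and RAG2 from 383 to 128 in the authors' deposited table (-0.54 and -1.58).

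DEPP1, a known direct target of FOXO factors, was at 45.8 with scrambled and 166 with FOXO3 shRNA in the authors' deposited table (1.86, SE 0.31, adjusted p = 7.57e-08, DESeq2), higher with less FOXO3. Its promoter is shown because it holds the core letters that FOXO factors bind. The window lies at chr10:44978760-44979059 on the minus strand (RefSeq, GRCh38.p14), and capitals mark GTAAACA, the complement of TGTTTAC, 180 bases before the start.
DEPP1 promoter: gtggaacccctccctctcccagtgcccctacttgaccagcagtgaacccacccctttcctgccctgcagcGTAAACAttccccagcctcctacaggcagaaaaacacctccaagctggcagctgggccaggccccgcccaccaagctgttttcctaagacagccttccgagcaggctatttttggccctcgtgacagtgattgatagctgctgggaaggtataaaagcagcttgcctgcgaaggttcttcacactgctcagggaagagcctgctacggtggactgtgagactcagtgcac
TGTTTAC on either strand was in a promoter of 6 of 42 FOXO targets with an entry, namely BCL2L11, TXNIP, SELENOP, PIK3CA, DEPP1 and BTG1. Of these BCL2L11 and DEPP1 rose, PIK3CA fell (-0.31 in the authors' deposited table) and the others were not called. Among all genes with an entry 3.68% held it, with 3.21% of those that rose and 4.38% of those that fell.

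Histone transcripts held the 3 largest rises among well-expressed genes. Replication-dependent histones package DNA in S phase, and most of their messages end in a stem-loop in place of a poly(A) tail, while these libraries were made with oligo-dT, so the values cover only the polyadenylated share. Of 64 measured genes 25 rose and 0 fell by DESeq2 (2 at an unadjusted p under 0.05), with a median of 0.72, and 6 had a mean of at least 100. Their summed value went from 1064 to 9619.8. HIST1H1C, a linker histone, was at 116 with scrambled and 3058 with FOXO3 shRNA in the authors' deposited table (4.72, SE 0.14, adjusted p = 4.66e-245, DESeq2). It was the 1 of 6 linker histones that rose, and HIST1H1B, another, lay at 13.9 with scrambled and 12.4 with FOXO3 shRNA in the authors' deposited table. HIST1H2BK, of the H2B class, was at 203 with scrambled and 3180.4 with FOXO3 shRNA in the authors' deposited table (3.97, SE 0.15). By class 7 of 16 H2A, 9 of 17 H2B, 5 of 12 H3 and 3 of 13 H4 genes rose. HIST2H2AA3 and HIST2H2AA4, HIST2H3A and HIST2H3C, and HIST2H4A and HIST2H4B are copies with the same deposited value, so each pair is 1 measurement. Both copies are in these counts and the summed value, and 1 such pair is among the 6 with a mean of at least 100. The median transcript GC content of these genes was 58.2%, inside the group where rises were most frequent.

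The histones outside the clusters, whose messages are polyadenylated, went both ways. Of 12 genes 1 rose and 3 fell. H1F0, a replacement linker histone, fell (-0.86, SE 0.16), H3F3B, a replacement H3, fell (-0.46) and H2AFZ was not called (0.02) in the authors' deposited table. H2AFX, the variant phosphorylated at DNA breaks, has both message forms and was at 1292 with scrambled and 3167 with FOXO3 shRNA in the authors' deposited table (1.29, SE 0.13). Of 11 genes of histone message processing and transcription 4 rose and 2 fell. SLBP, the stem-loop binding protein, was at 1436 with scrambled and 2004 with FOXO3 shRNA and NPAT, the activator of histone genes, at 734 with scrambled and 994 with FOXO3 shRNA in the authors' deposited table (0.48 and 0.44). ERI1, the exonuclease that trims the stem-loop end, fell (-0.68 in the authors' deposited table).

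The HIST1H2BK promoter (RefSeq name H2BC12) is shown as an example of the shared letters of H2B promoters, at chr6:27146809-27147108 on the minus strand (GRCh38.p14). Capitals mark the octamer ATTTGCAT, 46 bases before the start, and the box TGATTGG, once as written and once as its complement, 120 and 79 bases before it.
HIST1H2BK promoter: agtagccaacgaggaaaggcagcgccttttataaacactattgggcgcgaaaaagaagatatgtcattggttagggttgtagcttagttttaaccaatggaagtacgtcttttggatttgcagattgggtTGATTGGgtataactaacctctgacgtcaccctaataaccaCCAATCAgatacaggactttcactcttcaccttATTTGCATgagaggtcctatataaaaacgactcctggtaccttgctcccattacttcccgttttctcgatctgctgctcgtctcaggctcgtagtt
The octamer, searched on both strands, was in 13 of 17 H2B and 10 of 15 H2A promoters and in 0 of 11 H4 promoters, against 2.16% of all genes. Among histone genes that rose 12 of 25 held it and among those not called 12 of 34. TGATTGG was in 41 of 59 histone promoters, the same letters as in HLA-DRB1, whose value fell.

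Cell cycle lists held both rises and falls. Of 34 DNA replication genes 7 rose and 10 fell, with a median of -0.03, and of 30 mitosis genes 5 rose and 9 fell, with a median of -0.06. Within the replication machinery MCM2, a subunit of the helicase, rose (0.79) and MCM7, another subunit of the same ring, fell (-0.42), while MCM3, MCM4 and MCM5 were not called (0.00, 0.03 and 0.05) in the authors' deposited table. RRM2, the subunit that limits nucleotide supply, was at 1365 with scrambled and 711 with FOXO3 shRNA in the authors' deposited table (-0.94, SE 0.17), and TK1 (-0.45), an enzyme of thymidine supply, fell as well. PCNA, the sliding clamp, was not called (-0.06 in the authors' deposited table). MKI67, the proliferation marker, was at 9297 with scrambled and 7107 with FOXO3 shRNA and CDK1, the mitotic kinase, at 1119 with scrambled and 829 with FOXO3 shRNA in the authors' deposited table, and both fell (-0.39 and -0.43), while CCNB1 and CDC20, partners of mitotic entry and exit, rose (0.31 and 0.40). Of 23 genes of G1 control 5 rose and 2 fell. RB1, the retinoblastoma protein, was at 5153 with scrambled and 7432 with FOXO3 shRNA in the authors' deposited table (0.53, SE 0.14) and CDK6, a kinase that inactivates it, at 1496 with scrambled and 1123 with FOXO3 shRNA (-0.41, SE 0.16).

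MYC, whose translocation defines Burkitt lymphoma, was at 6674 with scrambled and 3962 with FOXO3 shRNA in the authors' deposited table (-0.75, SE 0.17, adjusted p = 0.000131, DESeq2). Of 12 genes of the MYC network 3 rose and 3 fell. MXD1, an antagonist, rose (0.68), and the antagonists MXI1 and MXD3 fell (-0.82 and -0.76), in the authors' deposited table. Ribosome biogenesis genes, some of those that MYC is known to drive, did not fall as a group. Of 30 ribosome biogenesis genes 6 rose and 1 fell, with a median of 0.00; NCL and NPM1, abundant nucleolar proteins, were not called (-0.19 and -0.09 in the authors' deposited table). Many cytosolic ribosomal protein genes rose by a small amount. Of 77, 29 rose and 3 fell, with a median of 0.25. The 3 that fell were RPL29 (-0.84), RPL11 (-0.44) and RPL21 (-0.33) in the authors' deposited table; these genes have many processed copies that can take their reads.

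Amino acid supply fell. The genes that make and import amino acids are known targets of ATF4, the factor of the integrated stress response. Of 23 genes 13 fell and 1 rose, with a median of -0.50. ASNS, asparagine synthetase, was at 14986 with scrambled and 6764 with FOXO3 shRNA in the authors' deposited table (-1.15, SE 0.15, adjusted p = 8.33e-13, DESeq2). The serine and one-carbon route fell at several steps. The falls were -0.46 for PHGDH, -0.56 for PSAT1, -0.78 for SHMT2 and -1.10 for MTHFD1L in the authors' deposited table, while MTHFD2 was not called (-0.16). SLC7A5, the transporter of large neutral amino acids, was at 17632 with scrambled and 8374 with FOXO3 shRNA in the authors' deposited table (-1.07), and its heavy chain SLC3A2 was not called (-0.25). ALDH18A1, the first enzyme of proline synthesis, was the one that rose (0.35 in the authors' deposited table), and PYCR1, the last, fell (-0.66).

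The stress response genes beside them were mixed. Of 21 genes 7 fell and 2 rose. ATF4 itself was not called, at 16569.9 with scrambled and 17529.6 with FOXO3 shRNA in the authors' deposited table (0.08), nor was DDIT3 (CHOP), at 1038 with scrambled and 1058 with FOXO3 shRNA (0.03). ATF5, a related factor, was at 17971 with scrambled and 9288 with FOXO3 shRNA and TRIB3, a pseudokinase induced by ATF4, at 4010.3 with scrambled and 2076 with FOXO3 shRNA in the authors' deposited table, and both fell. EIF2AK2 (PKR), the kinase that senses double-stranded RNA, rose from 204 to 363 in the authors' deposited table (0.83, SE 0.18). Of 20 cytosolic tRNA synthetases 8 fell and 0 rose by DESeq2 (3 at an unadjusted p under 0.05), NARS most (-0.62 in the authors' deposited table), with a median of -0.16. Of 23 genes of the endoplasmic reticulum 5 fell and 0 rose by DESeq2 (0 at an unadjusted p under 0.05). ERN1 (IRE1), the sensor upstream of XBP1, was at 3068 with scrambled and 1484 with FOXO3 shRNA in the authors' deposited table (-1.05, SE 0.19), and HSPA5 (BiP), the main chaperone there, was not called (-0.05).

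The ASNS promoter is shown because it holds the letters of the known amino acid response element, at chr7:97872359-97872658 on the minus strand (RefSeq, GRCh38.p14). Capitals mark the match to TGATGNAA, searched on both strands, 68 bases before the start.
ASNS promoter: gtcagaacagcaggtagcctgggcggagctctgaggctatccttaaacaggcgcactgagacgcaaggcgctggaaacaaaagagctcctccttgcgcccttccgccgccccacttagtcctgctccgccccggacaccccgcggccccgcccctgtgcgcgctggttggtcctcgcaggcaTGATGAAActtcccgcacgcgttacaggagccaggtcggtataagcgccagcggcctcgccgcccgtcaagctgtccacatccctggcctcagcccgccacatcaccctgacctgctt
TGATGNAA was in 7 of 17 amino acid supply promoters and 7 of 16 tRNA synthetase promoters, against 3.22% of all genes. Over all genes it was in 1.95% of those that rose and 4.06% of those that fell. In amino acid supply 4 of 9 promoters of genes that fell held it and 3 of 7 of those not called. Among tRNA synthetases the same counts were 4 of 7 and 3 of 9.

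Cytosolic chaperones rose while those of the endoplasmic reticulum did not. Heat shock genes, driven by HSF1, code for the HSP70, HSP90 and HSP40 chaperones. Of 21 genes 11 rose and 1 fell, with a median of 0.46, and their summed value went from 86789 to 120707. HSP90AA1, the inducible HSP90, was at 13172 with scrambled and 24566 with FOXO3 shRNA in the authors' deposited table (0.90, SE 0.17), and HSP90AB1, the constitutive form, was not called (0.07). HSPH1, an HSP70 exchange factor, was at 1833 with scrambled and 4517 with FOXO3 shRNA in the authors' deposited table (1.30, SE 0.18), and DNAJB1, the HSP40 partner, at 412 with scrambled and 819.8 with FOXO3 shRNA (0.99, SE 0.19). The mitochondrial pair HSPD1 and HSPE1 was not called (0.19 and 0.20 in the authors' deposited table). HSPA6, a strictly inducible HSP70 whose mean was under 100, was the member that fell (-1.51 in the authors' deposited table). HSPA1A and HSPA1B, near-identical copies whose reads cannot be told apart, were not called (0.62 and 0.95). HSF1 was not called (0.27 in the authors' deposited table).

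The DNAJB1 promoter is shown for its pair of heat shock element letters, at chr19:14518348-14518647 on the minus strand (RefSeq, GRCh38.p14). Capitals mark GAANNTTC, 77 and 47 bases before the start.
DNAJB1 promoter: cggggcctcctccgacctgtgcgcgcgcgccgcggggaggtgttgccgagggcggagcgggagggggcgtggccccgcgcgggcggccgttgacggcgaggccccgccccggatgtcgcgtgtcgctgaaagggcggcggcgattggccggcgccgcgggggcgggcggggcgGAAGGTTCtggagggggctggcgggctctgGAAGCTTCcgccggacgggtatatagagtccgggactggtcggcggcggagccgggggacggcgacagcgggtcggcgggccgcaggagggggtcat
GAANNTTC, which is its own complement, was in 11 of 19 heat shock promoters against 6.99% of all genes. It was in 5 of the 10 promoters of members that rose and in 5 of the 8 of those not called.

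**Figure D4:**
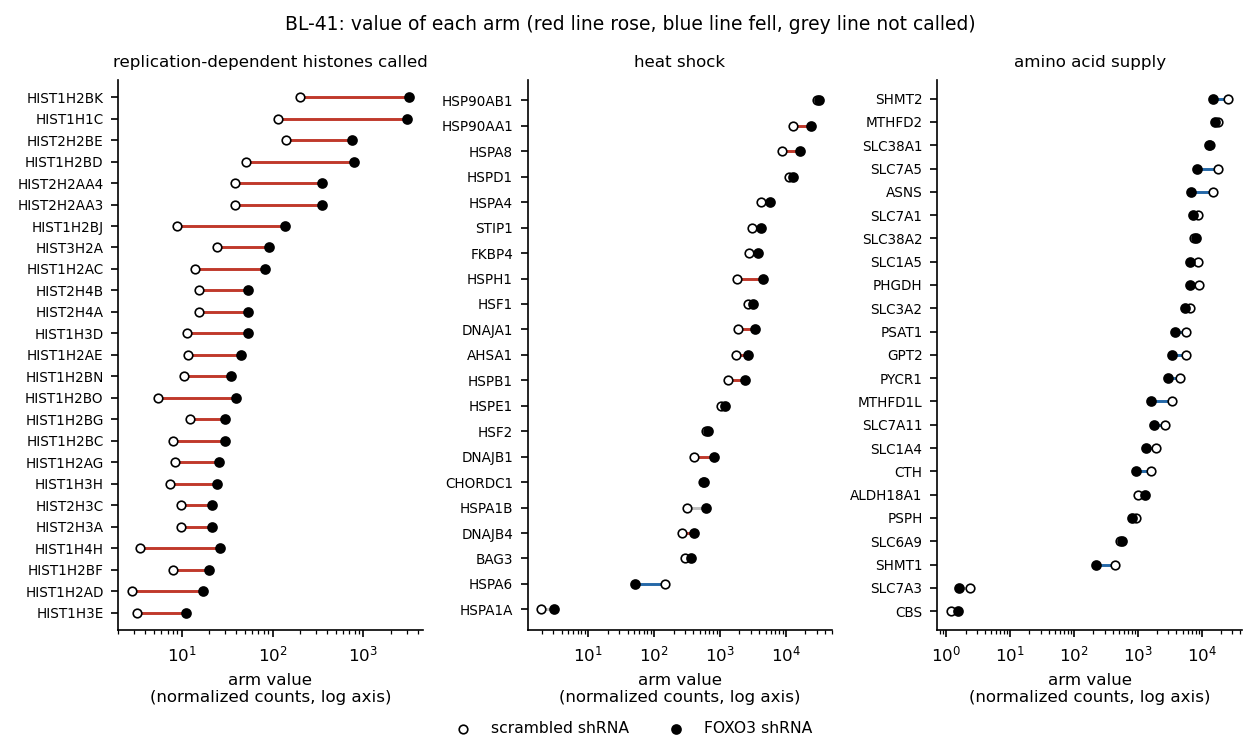
Deposited value of each arm in BL-41 (x axis, normalized counts, log scale), open circles scrambled shRNA and filled circles FOXO3 shRNA, for the 25 histone genes that rose, the heat shock genes and the amino acid supply genes. Red lines rose, blue lines fell and grey lines were not called; HIST1H1C and HIST1H2BK span the widest distance among the well-expressed histones, and HSPA6 is the heat shock gene with a blue line.

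Caspase genes rose more often than they fell. Of 26 caspase and death receptor genes 9 rose and 2 fell, with a median of 0.11. The initiator CASP8 was at 888 with scrambled and 1678 with FOXO3 shRNA in the authors' deposited table (0.92, SE 0.16) and its relative CASP10 at 28.1 with scrambled and 106 with FOXO3 shRNA (1.91, SE 0.29). Inhibitors rose too, with XIAP at 0.39 and BIRC2 at 0.42 on the log2 scale in the authors' deposited table. In the BCL2 family 4 of 17 genes rose and 3 fell. The pore formers BAX and BAK1 rose (0.45 and 0.35), the inhibitors MCL1 and BCL2A1 fell (-0.33 and -1.02) and BCL2 and BCL2L1 were not called (-0.19 and 0.03), all in the authors' deposited table. Of these, BCL2A1 had a mean under 100. HRK, a sensitizer of the BH3-only group, fell from 953 to 549 in the authors' deposited table (-0.79, SE 0.18). Of 23 p53 targets 7 rose and 2 fell. PLK3 rose (1.14) and DDB2, a repair factor, fell (-0.80) in the authors' deposited table, and MDM2 was not called (0.25).

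Autophagy and lysosome genes held several rises. Of 29 autophagy genes 10 rose and 3 fell. ATG2A, which moves lipid to the growing membrane, was at 740.2 with scrambled and 2322 with FOXO3 shRNA in the authors' deposited table (1.65, SE 0.15), ATG9A, its scramblase partner, at 819 with scrambled and 1350.2 with FOXO3 shRNA, and the cargo receptor SQSTM1 (p62) at 1865 with scrambled and 2843 with FOXO3 shRNA. ATG7 and ATG10, enzymes of conjugation, fell (-1.03 and -1.08 in the authors' deposited table). Of 29 lysosome genes 9 rose and 6 fell. The list was not divided by role, and its proton pump genes and hydrolases are set apart here after their values were seen. All 6 listed genes of the proton pump rose, ATP6V0D1 from 326 to 1073 in the authors' deposited table (1.72, SE 0.19). Among hydrolases CTSZ rose (0.58) and others fell, with HEXA at -1.16, GLA at -0.98, TPP1 at -0.82 and GUSB at -0.58 in the authors' deposited table, while CTSB and CTSD were not called (0.29 and 0.05).

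Signalling lists were mixed. In the PI3K, AKT and mTOR list, which acts upstream of FOXO3, 5 of 27 rose and 7 fell. AKT1 was at 2669.6 with scrambled and 3879 with FOXO3 shRNA in the authors' deposited table (0.54, SE 0.12), SGK1, a related kinase, at 49.8 with scrambled and 148 with FOXO3 shRNA (1.57), and the mTOR inhibitor DEPTOR at 604 with scrambled and 331 with FOXO3 shRNA. Of 23 NF-kB genes 3 rose and 5 fell. TRAF1, an adaptor, was at 182 with scrambled and 58.8 with FOXO3 shRNA in the authors' deposited table and LTA, lymphotoxin alpha, at 258 with scrambled and 108 with FOXO3 shRNA, both falls, and TNF at 37.6 with scrambled and 128 with FOXO3 shRNA, a rise, while the inhibitor NFKBIA was not called (-0.07). Of 36 interferon-stimulated genes 5 rose and 5 fell. The RNA sensor DDX58 (RIG-I) was at 95.5 with scrambled and 329 with FOXO3 shRNA in the authors' deposited table (1.78, SE 0.22) and the factor IRF7 at 493 with scrambled and 985 with FOXO3 shRNA, while the antiviral proteins MX1 and MX2 fell (-1.23 and -1.08) and ISG15, a common marker of interferon exposure, was not called (0.34). Of 20 immediate early genes 6 rose and 1 fell. IER2 (0.92), MAFF (0.92), EGR2 (1.17) and JUNB (0.49) rose, ATF3 fell (-0.56), and FOS, JUN and EGR1 were not called (-0.29, 0.74 and 0.34), all in the authors' deposited table.

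In metabolism the glycolysis list held more falls than rises and the respiratory chain about as many of each. Of 22 glycolysis genes 6 fell and 1 rose. ENO1, enolase, was at 35972 with scrambled and 22164 with FOXO3 shRNA in the authors' deposited table (-0.70, SE 0.12), LDHA, lactate dehydrogenase, at 16973 with scrambled and 11210.3 with FOXO3 shRNA (-0.60, SE 0.15) and TPI1, triose phosphate isomerase, at 9141 with scrambled and 5569 with FOXO3 shRNA (-0.71, SE 0.10), while GAPDH and PKM were not called (-0.19 and -0.11). SLC16A3, the lactate exporter, was the one that rose (0.85 in the authors' deposited table). Of 76 genes of oxidative phosphorylation 8 rose (10.5%) and 9 fell (11.8%), with a median of 0.00. Among well-expressed genes 20.0% rose and 20.7% fell. Of 23 cholesterol synthesis genes 3 rose and 6 fell. Of 9 genes of iron handling 3 rose and 1 fell. TFRC, the transferrin receptor, rose from 4477 with scrambled to 7335 with FOXO3 shRNA in the authors' deposited table. FTL, the ferritin light chain, rose from 10577 to 17506. Of 26 genes of oxidative defence 7 rose and 4 fell. The enzymes GPX1 (0.86), GPX4 (0.50), SOD1 (0.47) and PRDX5 (0.63) rose and NFE2L2 (NRF2), the factor of this defence, fell (-0.63), all in the authors' deposited table.

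Core splicing proteins went both ways. Of 26 genes 6 rose and 3 fell. SNRPB, a shared protein of the spliceosomal ring, was at 4560.0 with scrambled and 1311 with FOXO3 shRNA in the authors' deposited table (-1.80, SE 0.19), and its partners SNRPD1 and SNRPD3 were not called (0.00 and 0.03). SNRPA1, of the U2 particle, was at 1089 with scrambled and 2379 with FOXO3 shRNA and SF3B3, of the branch point complex, at 3233 with scrambled and 6815 with FOXO3 shRNA in the authors' deposited table. Of 20 chromatin modifiers that lymphomas mutate 8 rose and 2 fell. SETD2 (0.75), CREBBP (0.62), ARID1A (0.58), KMT2C (0.48), EP300 (0.38) and KMT2D (0.35) rose in the authors' deposited table, EZH2 was not called (-0.28) and DNMT3B fell (-0.67).

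Among all well-expressed genes, the largest called changes included an amine oxidase among the rises and a pore-forming protein among the falls. Some of these genes, such as MPEG1 and FCRL1, are members of the lists above. Beside 6 histones and 2 read-through loci the 25 largest held AOC3, an amine oxidase, at 22.8 with scrambled and 265 with FOXO3 shRNA in the authors' deposited table, BCL9L, a coactivator of beta-catenin, at 303 with scrambled and 1363 with FOXO3 shRNA, and PTBP2, a splicing regulator of neurons, at 227 with scrambled and 901 with FOXO3 shRNA. The Notch ligand JAG2 was at 52.6 with scrambled and 216 with FOXO3 shRNA in the authors' deposited table and the antibody transporter PIGR at 59.9 with scrambled and 220.0 with FOXO3 shRNA. DYNLRB1, a dynein light chain, was at 375 with scrambled and 1439 with FOXO3 shRNA in the authors' deposited table, and ATP6V0C, another proton pump subunit, at 841 with scrambled and 2886 with FOXO3 shRNA. Among the 25 largest falls were MPEG1, a pore-forming protein of phagocytes and B cells, at 2828 with scrambled and 575 with FOXO3 shRNA in the authors' deposited table, KCNN3, a potassium channel, at 2289 with scrambled and 568 with FOXO3 shRNA, and PLD4, an endosomal nuclease, at 1921 with scrambled and 587 with FOXO3 shRNA. GSDME, a gasdermin, was at 350.4 with scrambled and 105 with FOXO3 shRNA in the authors' deposited table, MYLK3, a myosin kinase, at 743 with scrambled and 235 with FOXO3 shRNA, and the Fc receptor relative FCRL1 at 165 with scrambled and 53.9 with FOXO3 shRNA.

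To ask where BL-41 differed from the EBV-carrying lines, its log2 fold change was set against theirs with a z test of the difference and Benjamini-Hochberg adjustment over all genes. Of 14789 genes shared with Namalwa 593 (4.01%) were higher and 444 (3.00%) lower in BL-41, and of 15419 shared with Jiyoye 464 (3.01%) were higher and 499 (3.24%) lower. Of 14549 genes measured in the 3 lines 189 (1.30%) were higher and 155 (1.07%) lower than in both. The difference of FOXO3 itself did not pass in either pair (0.30 against Namalwa, adjusted p = 0.486, and -0.50 against Jiyoye, adjusted p = 0.136, z test). By these values the log2 fold change of FOXO3 was more negative in Namalwa than in BL-41 and smaller in size in Jiyoye. A difference that did not pass does not show that the knockdown was equally deep. Whether a difference belongs to EBV, to the cell line or to the depth of the knockdown cannot be told apart with 1 EBV-negative line.

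MHC class II had 7 of 22 members lower than in both lines, namely HLA-DRA, HLA-DRB1, HLA-DRB5, HLA-DQA1, HLA-DPA1, HLA-DPB1 and CD74. For HLA-DRB1 the difference was -0.93 against Namalwa and -1.38 against Jiyoye (adjusted p = 2.76e-05 and 5.11e-11, z test). Its values in the other lines were 4111 and 3568 in Namalwa and 17757 and 21023 in Jiyoye in the authors' deposited table, so the arms lay closer there. HLA-DRA fell in Namalwa too (-0.37 in the authors' deposited table), but less than in BL-41, and was not called in Jiyoye (0.00). JCHAIN had almost equal arms elsewhere, at 29752 and 28750.0 in Namalwa and 21466 and 18778 in Jiyoye in the authors' deposited table, and differed by -1.37 and -1.23 (adjusted p = 9.26e-10 and 5.58e-08, z test).

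Other B cell genes were lower than in both lines as well, although none of the differences named for them, or for the amino acid, FOXO target and histone genes that follow, still passed against both lines with SE 1.5 times as large. They included CD79B, PLCG2 and FCRLA of the receptor list, MME and SLAMF6 of the surface list, BACH2 and MEF2B of the factors, and TCL1A of the germinal centre. CD79B differed by -0.71 and -1.37 (adjusted p = 0.000764 and 3.38e-12, z test), and BACH2, a repressor of plasma cell fate, by -0.62 and -1.65 (adjusted p = 0.0368 and 0.0325). MYC differed by -0.91 and -0.75 (adjusted p = 0.00108 and 0.00905, z test). IRF4, a plasma cell factor, was higher than in both, by 0.95 and 2.04 (adjusted p = 4.62e-05 and 5.98e-15, z test). In amino acid supply SHMT2, MTHFD1L and GPT2 were lower than in both, and MTHFD1L, a mitochondrial one-carbon enzyme, was at 1958 and 2164 in Namalwa and 1252 and 1131 in Jiyoye elsewhere in the authors' deposited table. Among FOXO targets S1PR1 and FBXO32 were higher than in both, S1PR1 by 1.97 and 1.21 (adjusted p = 0.00107 and 0.00554, z test). The median of the histone list was 0.51 in Namalwa and 0.39 in Jiyoye, and of its members only HIST1H1C and HIST1H2BD were higher in BL-41 than in both, with HIST1H1C at 4.72, 2.70 and 2.96 in the authors' deposited table.

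The 20 well-expressed genes named by the lowest p of the difference included SRRT, CLK2, HEXIM1 and TOB2. SRRT, a cap-binding cofactor of microRNA processing, was at 1838 with scrambled and 5091 with FOXO3 shRNA in BL-41 in the authors' deposited table and at 3551 and 4085 in Namalwa and 2541 and 2889.7 in Jiyoye. CLK2, a kinase of splicing factors, was at 1553 with scrambled and 3083 with FOXO3 shRNA in BL-41 in the authors' deposited table, and HEXIM1, an inhibitor of transcription elongation, at 1041 with scrambled and 2874 with FOXO3 shRNA. TOB2, an antiproliferative protein that recruits deadenylases, was at 896 with scrambled and 2599 with FOXO3 shRNA in BL-41 in the authors' deposited table and at 774 and 937 in Namalwa and 854 and 1052 in Jiyoye. CDK11A, also named among these, has a near-identical neighbour, CDK11B, and is uncertain, and RPL36A-HNRNPH2 is a read-through locus that shares reads with both its genes. With SE 1.5 times as large, 8 of the 20 named differences still passed against both lines: ATG2A, CDK11A, JCHAIN, RPL36A-HNRNPH2, SF3B3, SRRT, STS and TOB2, so those of the MHC class II genes did not.

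**Figure D5:**
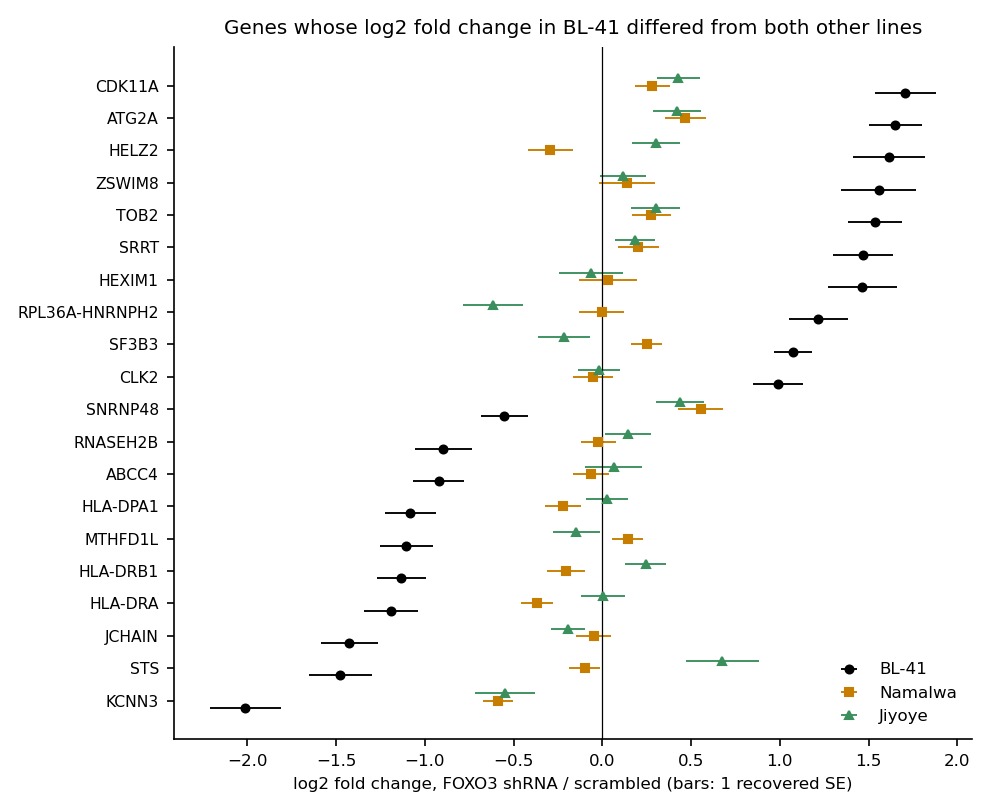
Log2 fold change (x axis, bars 1 recovered SE) of 20 genes whose change in BL-41 (black circles) differed from that in both Namalwa (orange squares) and Jiyoye (green triangles). In BL-41 10 lie to the right of the other lines, CDK11A at 1.71 the farthest, and the rest lie to the left, KCNN3 at -2.01 the farthest, with HLA-DRA, HLA-DRB1, HLA-DPA1 and JCHAIN among them.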

How the data were processed

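Messenger RNA of BL-41 cells with scrambled or FOXO3 shRNA was measured by sequencing, 3 libraries per arm, after selection of polyadenylated RNA with oligo-dT, per the labels' protocols. Filtering was done with SOAPnuke, and reads were mapped with Bowtie2 to hg38, quantified with RSEM and tested with DESeq2, per the series' design text and the submitters' processing notes, which give no versions. The deposited table holds, for each gene, 1 signal value per arm (a normalized count averaged over the libraries), the log2 fold change from the authors' DESeq2 run, and its p-value and Benjamini-Hochberg adjusted p-value as deposited. The transcript length in the deposited table was not needed for any test. The deposited log2 fold change equalled the log2 ratio of the arm values to within 1.34e-14, and adjusting the deposited p-values again gave the deposited adjusted p to within 1.55e-15. A count test planned for values per library could not be run, since the tables hold 1 value per arm, so no SD is given.

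Standard errors were recovered from each log2 fold change and p-value under a normal distribution. Differences between lines were tested with a two-sided z test on these errors and Benjamini-Hochberg adjustment over all genes measured in both. The procedure was also run on simulated data with noise drawn from the same recovered errors. That run cannot show whether those errors are right. The scripts ran under Python 3.11.15 with pandas 2.3.3 and scipy 1.17.1 on numpy 2.4.6, and figures were drawn by matplotlib 3.10.9. Genes were matched to RefSeq (GRCh38.p14) by gene ID, 15966 of 16001, and 12843 had a promoter entry. GC content was available for 15901 genes (99.4%).

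The 44 gene lists (1129 members, 1102 measured) were chosen with earlier results of these data known. Named genes were the lists' key members, the 3 largest called rises and falls of each list and the 25 of the whole table with a mean of at least 100, and 10 line differences in each direction with the lowest p. Genes outside this rule were chosen after their values were seen: ATG10, ATG9A, BIRC2, CD81, CDK11B, CST3, EGR2, FCGR2B, FCRLA, GADD45A, GPT2, GUSB, HBB, HIST2H3A, HIST2H3C, HIST2H4A, HIST2H4B, HLA-DOA, HLA-DRB5, IGF1R, MCM3, MCM4, MEF2B, NFYA, NFYB, NFYC, PIK3CA, SELENOP, SLAMF6, SNRPD1, TNF, and the genes of low level in the closing section. Some genes that the rule names are not reported here. Alternatives tried were a stricter adjusted p, a minimum size, other families of genes, Holm adjustment, centring, larger standard errors and, chosen after seeing the data, centring by GC content and leaving out read-through loci.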

Additional observations from a re-analysis of the deposited data

Results flagged for a closer look

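For 20 well-expressed genes the log2 fold change in BL-41 differed from that in both Namalwa and Jiyoye by the z test of the difference, with Benjamini-Hochberg adjustment over all genes. They are those with the lowest p of the kind, so their sizes were chosen on these data. Each difference below is BL-41 minus the other line on the log2 scale, Namalwa first.

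Of genes higher in BL-41, SRRT differed by 1.27 and 1.28, and ATG2A by 1.18 and 1.23. The kinases CDK11A and CLK2 differed by 1.42 and 1.28 and by 1.04 and 1.01. TOB2 differed by 1.26 and 1.24, and SF3B3 by 0.82 and 1.29. HEXIM1 stood 1.43 and 1.53 above the other lines, and ZSWIM8, a substrate receptor of a ubiquitin ligase that acts on microRNA complexes, 1.42 and 1.44. HELZ2, a helicase-like coactivator induced by interferon, differed by 1.91 and 1.31. The read-through locus RPL36A-HNRNPH2 differed by 1.22 and 1.83, and fell in Jiyoye (-0.61 in the authors' deposited table).

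Of genes lower in BL-41, STS, steroid sulfatase, differed by -1.38 and -2.15; it rose in Jiyoye (0.68 in the authors' deposited table). JCHAIN differed by -1.37 and -1.23, and MTHFD1L by -1.25 and -0.96. The class II genes HLA-DRA, HLA-DRB1 and HLA-DPA1 differed by -0.82 and -1.19, by -0.93 and -1.38 and by -0.86 and -1.11. KCNN3 fell in all 3 lines in the authors' deposited tables and differed by -1.42 and -1.47. SNRNP48, a protein of the minor spliceosome, differed by -1.11 and -0.99, and it rose in the other lines (0.55 and 0.44 in the authors' deposited tables). RNASEH2B, a subunit of the enzyme that removes ribonucleotides from DNA, differed by -0.87 and -1.04, and ABCC4, an exporter of nucleotides, by -0.86 and -0.99. The lines share no library, but each table was normalized separately by the authors.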

How the results depend on the processing

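Of 2314 rises and 2277 falls, 1480 rises and 1654 falls reached 0.5 in size on the log2 scale, so falls were then the more numerous, and 459 rises and 440 falls reached 1. Holm adjustment left 639 rises and 590 falls. Among listed genes (217 rises, 209 falls) 132 rises and 150 falls had at least 0.5 in size, 50 rises and 44 falls at least 1 in size, and Holm adjustment left 62 and 76. With recovered SE 1.5 times as large, 32 genes were higher and 5 lower in BL-41 than in Namalwa (593 and 444 before), 31 and 19 than in Jiyoye (464 and 499), and 10 and 2 than in both (189 and 155). These smaller counts follow from the stricter rule. The other alternatives kept each of these counts within 1.5 times: an adjusted p under 0.01 (1659 and 1643), adjustment only over genes whose mean reached 10 (2400 and 2413) or 100 (2153 and 2190), centring (2312 and 2278), centring within bins of GC content, whose medians ran from -0.07 to 0.17 (2267 and 2322), and leaving out read-through loci (2302 and 2275). Of 586 named genes 0 reversed under these settings, while 179 lost the call under Holm adjustment, 51 at an adjusted p under 0.01 and 12 under GC centring.

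No paired analysis was possible because the deposited tables hold 1 value per arm and none per library, and for the same reason leaving out a replicate was not run. An arm's spread is therefore seen only through the authors' p-values. Depth limits the low genes: below a mean of 10 the median SE was 0.51, against 0.14 at a mean of at least 100, and 66 of 4018 genes were called.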

Other observations

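A group of genes that the scrambled arm of BL-41 scarcely expressed rose from near 0. These genes were chosen after their values were seen. Of the 81 called rises of at least 2 on the log2 scale 66 had a mean under 100, while 7 falls reached that size. Listed histones made up 12 of the 81. GPAT3, an enzyme of triglyceride synthesis, was at 2.60 with scrambled and 68.3 with FOXO3 shRNA in the authors' deposited table. ANXA1, annexin A1, a protein of myeloid and epithelial cells, was at 12.1 with scrambled and 174 with FOXO3 shRNA in the authors' deposited table. TNS1, a focal adhesion protein, was at 3.83 with scrambled and 67.2 with FOXO3 shRNA in the authors' deposited table, DDR2, a collagen receptor, at 5.05 with scrambled and 42.7 with FOXO3 shRNA, and TJP1, a tight junction protein, at 2.10 with scrambled and 18.3 with FOXO3 shRNA.

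These genes were chosen for their size in BL-41, so their values in the other lines are a description. Besides histones, 69 genes rose by at least 2 on the log2 scale in BL-41. Of these, 6 of the 67 measured in Namalwa and 24 of the 68 measured in Jiyoye rose there too. The share of all genes that rose in those lines is not given here, so these counts have no background to be read against. ANXA1 had a log2 fold change of 3.85 in BL-41 against 0.15 in Namalwa and 0.57 in Jiyoye in the authors' deposited tables. NPR3, a clearance receptor for natriuretic peptides, had 4.14, 0.86 and 2.26 there. Over all genes with a mean under 100 the imbalance was smaller, with 333 rises and 232 falls. It differed by level. Under a mean of 10 there were 60 rises and 6 falls among 4018 genes, and from 10 to 100 there were 273 and 226 among 2099. Size factors did not overlap between the arms, as given above, and the part of depth in these rises was not tested.

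Medians of well-expressed genes differed a little by chromosome, from -0.08 on chromosome 4 to 0.10 on chromosome 19 on the log2 scale. Read-through loci, whose reads overlap the genes they join, held 13 rises and 3 falls among 65. The share called was 24.6%, against 28.7% of all genes. Of the 19 such loci with a mean of at least 100, 3 rose and 3 fell.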
